A study of Mus musculus with 6 samples.

Results

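Msx1, Msx2, Dlx1, Dlx2, Dlx3, Dlx4 and Dlx5 are homeobox genes, 7 of the 18193 genes that the platform annotation names alone on a probe set. They are measured by 11 of the 45101 probe sets on the array. Msx1, Msx2, Dlx3 and Dlx4 have 2 probe sets each, and Dlx1, Dlx2 and Dlx5 have 1 each. All 11 were kept, whatever their level. Where a gene has 2 probe sets, they are called the brighter and the dimmer by their mean over the 6 arrays.

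Msx and Dlx proteins are homeodomain transcription factors that bind similar AT-rich sites. Msx proteins act mostly as repressors and Dlx proteins mostly as activators, and the 2 families can bind and oppose each other. BMP ligands, acting through Smad1 and Smad5, induce several of them in ectoderm, limb, tooth and neural crest, which is why Msx1 and Msx2 are widely used as readouts of BMP signalling. Dlx3 is required in the placenta and the epidermis, Dlx5 acts in bone and craniofacial development, and Dlx1 and Dlx2 act in forebrain interneurons. In the RefSeq gene order Dlx1 lies beside Dlx2, Dlx3 beside Dlx4, and Dlx5 beside Dlx6.

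The cells were E14Tg2a mouse embryonic stem cells, 1 established line, and every group was cultured in N2B27 medium containing BMP4 (20 ng/ml) and LIF (1000 U/ml). The control cells received no further agent. The second group received activin, a ligand of the Smad2/3 branch of TGF-beta signalling, at 10 ng/ml for 2 h. The third received SB431542, an inhibitor of the type I receptors for activin, Nodal and TGF-beta, at 5 µM for 24 h. Each group had 2 arrays, so exposure time and agent changed together between the treated groups. A BMP4-free group is not among the samples, so no value below measures the response to BMP4 itself. Values are intensities on a linear scale, or their log2 where stated.

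The median intensity of the arrays ran from 37 to 49, and 8 of 8 embryonic stem cell markers, among them Pou5f1, Nanog and Sox2, were above background on all 6 arrays. Background was judged from 27 probe sets for Bacillus transcripts that were not added to the samples, whose log2 intensities ran from 3.00 to 5.09 with a median of 3.52. A probe set at or under 5.09, an intensity of 34, is described here as within the bacterial range. The deposited values come with no detection call. In a bulk culture, fewer cells that express a gene and less of its RNA per cell cannot be told apart.

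By that measure 5 probe sets were above the bacterial range on all 6 arrays, both of Msx1, the brighter of Msx2 and both of Dlx3. Dlx1 and the dimmer Dlx4 probe set were within it on all 6. The dimmer Msx2 and the brighter Dlx4 probe sets were above it on the 2 control arrays and on no treated array. Dlx5 was above it on both SB431542 arrays and on no other, and Dlx2 on 1 SB431542 array. Set against the highest bacterial value of each array by itself, from 23 to 34 in intensity, the count became 4 of 6 arrays for the brighter Dlx4 probe set and 3 of 6 for Dlx5, and stayed the same for the other 9.

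**Figure D1:**
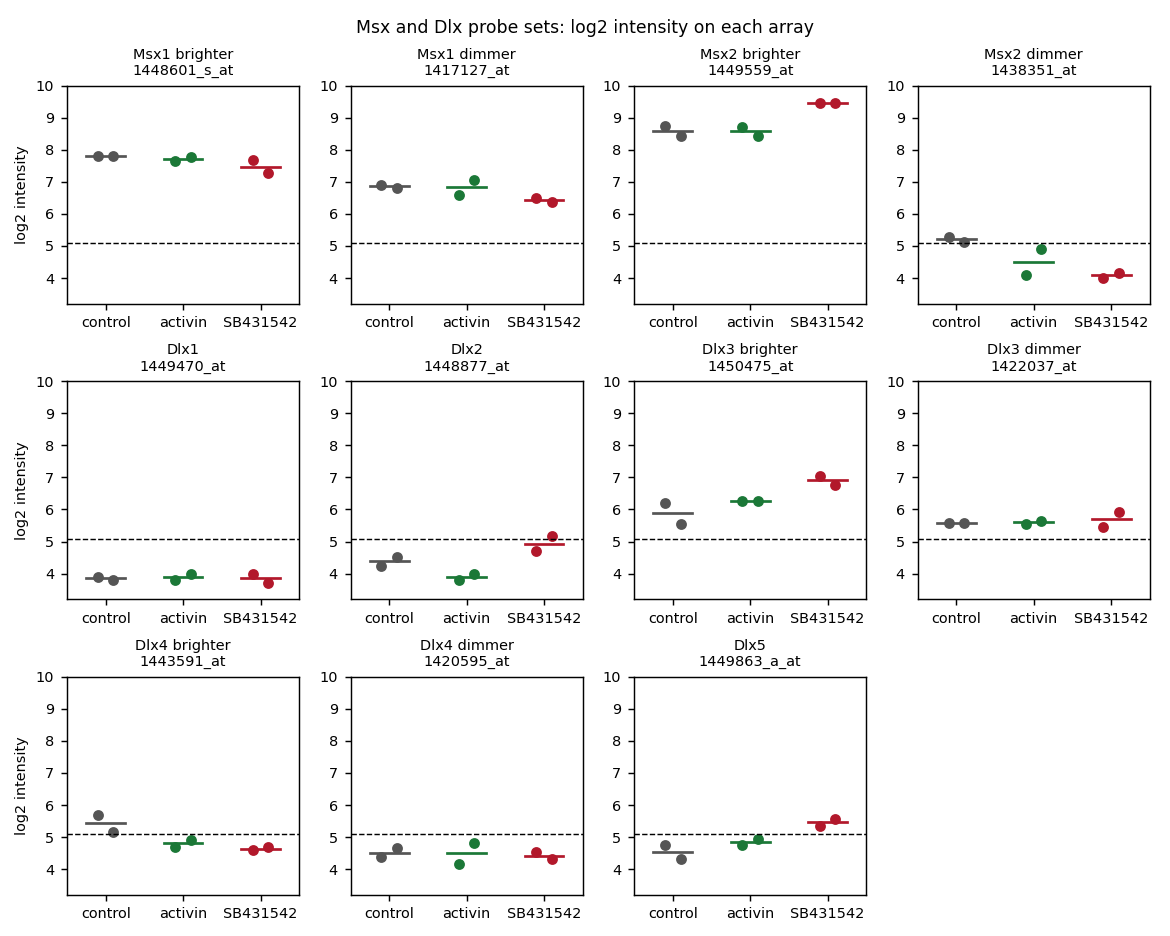
Log2 intensity of each of the 11 probe sets on each of the 6 arrays, in 1 panel per probe set. Points are arrays, short bars are group means of 2 arrays, and the dashed line is the highest log2 value of the unspiked bacterial probe sets, 5.09. The brighter Msx2 probe set sits at 9.48 and 9.46 on the SB431542 arrays and between 8.44 and 8.73 on the other arrays.

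Start-site regions of Msx1 and Msx2 are shown because both Msx1 probe sets and the brighter Msx2 probe set were above background on all arrays and differed in the sign of their SB431542 values. The dimmer Msx2 probe set, above background on 2 of 6 arrays, had the sign of Msx1. Sequences come from RefSeq (GRCm38.p6), from 250 bases before the start site to 50 bases after it, and 4 of the 7 genes were matched there (Msx1, Msx2, Dlx1 and Dlx2). Capitals mark TAATTA, a core motif of Msx and Dlx homeodomains, and CCAAT, the CCAAT box. Both strands were searched, so ATTGG marks a CCAAT box on the other strand, and no 2 matches overlap.
Msx2 (chr13:53472731-53473030, minus strand): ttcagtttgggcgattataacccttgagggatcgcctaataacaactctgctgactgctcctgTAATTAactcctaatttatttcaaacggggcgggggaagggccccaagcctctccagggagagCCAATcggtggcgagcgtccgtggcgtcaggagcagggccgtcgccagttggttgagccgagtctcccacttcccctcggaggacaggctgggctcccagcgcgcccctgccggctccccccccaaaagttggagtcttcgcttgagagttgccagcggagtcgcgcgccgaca
Msx1 (chr5:37824536-37824835, minus strand): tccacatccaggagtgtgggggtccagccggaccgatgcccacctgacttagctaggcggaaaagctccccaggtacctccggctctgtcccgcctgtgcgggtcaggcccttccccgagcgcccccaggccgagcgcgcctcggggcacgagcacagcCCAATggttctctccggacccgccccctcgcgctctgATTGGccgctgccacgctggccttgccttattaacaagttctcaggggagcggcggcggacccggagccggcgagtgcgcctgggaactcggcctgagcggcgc
The Msx2 window holds 1 TAATTA, beginning 187 bases before the start site, and 1 CCAAT box at 124 bases. The Msx1 window holds no TAATTA and 2 CCAAT boxes, at 91 and 54 bases. TAATTA occurred in 5.29% and CCAAT in 37.4% of 32851 promoter windows of the same length. GGCGCC, a GC-rich element bound by Smad1 and Smad5, was in neither Msx window, was in that of Dlx2, and was in 11.9% of all windows. TATAAA, the TATA box, was in none of the 4 windows and in 13.6% of all. GTCTAGAC, the palindrome bound by Smad3 and Smad4, was in none of the 4 windows and in 0.213% of all. The Msx1 window was 70.0% G or C and the Msx2 window 61.0%, against a median of 52.7% over all windows. Such matches describe the letters of these windows and were not linked to any difference between groups.

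The comparison of SB431542 with control asks which of these genes differ after 24 h of the receptor inhibitor, with BMP4 present throughout. The brighter Msx2 probe set was 1.84-fold higher and the brighter Dlx3 probe set 2.03-fold higher, both called with only 1 of the 2 variance models used. Dlx5 had a higher value by 1.89-fold and Dlx2 by 1.46-fold, both from levels within the bacterial range. Both Msx1 probe sets had lower values, by 1.25-fold and 1.34-fold. The dimmer Msx2 and brighter Dlx4 probe sets had lower values by 2.18-fold and 1.73-fold, from control levels just above the bacterial range.

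Limma with its default variance prior called 0 of the 11 probe sets after Benjamini-Hochberg adjustment over 45037 probe sets, where it called 0.0155% of all. At an unadjusted p under 0.05 it gave 6 of the 11, against 13.0% of all probe sets. A variance prior that follows the level of the probe set, with robust estimation, is called the intensity trend here and was run beside it. Its prior had 34.3 degrees of freedom, against 2.51 by default and 7.81 with the trend alone, beside 3 residual ones. Its small p-values therefore rest mostly on spread borrowed from other probe sets. The residual spread of these arrays depended on level, with a median SD of 0.35 log2 units in a bin of probe sets around 5.03 and 0.077 in the brightest of 10 bins. With the intensity trend 3 of the 11 passed, against 4.98% of all probe sets. They were 2 higher, against 3.38%, and 1 lower, against 1.60%. In 8 of the 11 the 2 SB431542 arrays lay on 1 side of both control arrays, as did 42.7% of all probe sets. Of these, 4 were higher, against 20.6%, and 4 lower, against 22.1%.

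Msx2, a repressor in limb, skull and tooth development, is treated first because its brighter probe set was called in more than 1 comparison. Its brighter probe set (1449559_at) read 425 and 348 in control, 420 and 348 with activin, and 712 and 703 with SB431542, as intensities. The SB431542 arrays stood above all 4 others, and the control and activin arrays covered nearly the same range. On the log2 scale it went from 8.59 ± 0.20 (SD, n = 2) to 9.47 ± 0.01 (SD, n = 2) after SB431542. That difference, 0.88 with a 95% interval of 0.47 to 1.29, did not pass by default (SE 0.16, limma adjusted p = 0.203) and passed, as a rise, by the intensity trend (adjusted p = 1.18e-05). With any 1 of the 6 arrays left out, the difference ran from 0.74 to 1.02, and leaving out an activin array cannot change it. Passing the intensity trend in those fits is not read as support, as the prior then outweighs the probe set's own spread.

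The dimmer Msx2 probe set (1438351_at), which the platform annotation ties to an expressed sequence tag where the brighter one is tied to a RefSeq mRNA, had the opposite sign. Its intensities were 39 and 35 in control, 17 and 30 after activin, and 16 and 18 after SB431542. Only the control arrays exceeded the bacterial maximum of 34, so the difference is set against a treated level within background. The log2 difference was −1.12 (SE 0.28, 95% interval −1.82 to −0.42, limma adjusted p = 0.256), and the probe set fell by the intensity trend (adjusted p = 0.0485). This call was lost without either control array (0.161 without replicate 1, 0.0886 without replicate 2), without either SB431542 array (0.349 and 0.180) and with dim probe sets left out (0.0702). The call was also lost with the trend but without robust estimation (limma adjusted p = 0.121). With the Msx2 probe sets averaged, the log2 difference was −0.12 (limma adjusted p = 0.767), so the direction given for Msx2 rests on the brighter one.

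**Figure D2:**
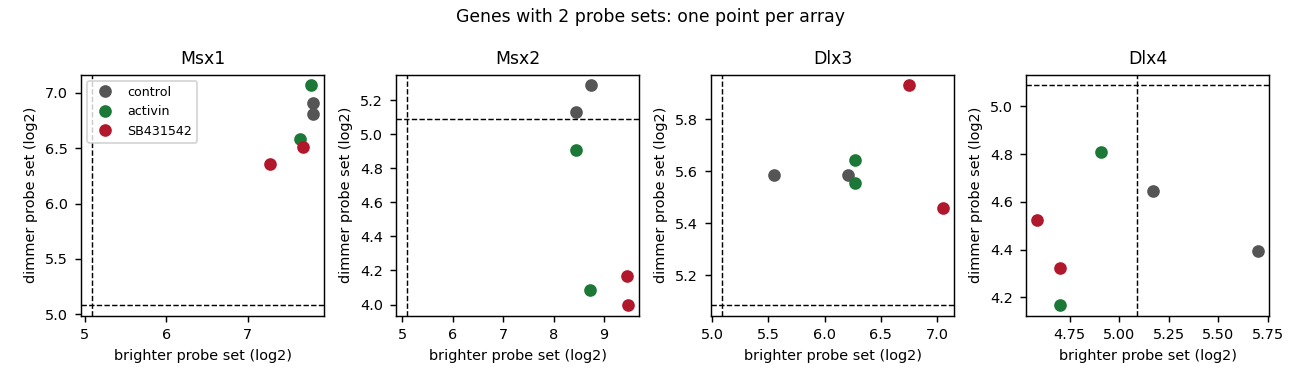
Log2 intensity of the dimmer probe set against the brighter one for the 4 genes with 2 probe sets, with 1 point per array coloured by group. Dashed lines mark the highest unspiked bacterial value, 5.09. For Msx2 the SB431542 arrays are highest on the brighter and among the lowest on the dimmer probe set, and for Dlx3 only the brighter one sets them apart.

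Msx1, the paralog of Msx2, was measured well above background by both probe sets. The brighter one (1448601_s_at) had intensities of 222 and 223 in control, 199 and 219 after activin, and 205 and 154 after SB431542. The other (1417127_at) had 120 and 112, then 96 and 134, then 91 and 82 in the same order. In both, the SB431542 arrays lay below both control arrays, by a margin smaller than the gap within 1 of the treated pairs. Log2 differences were −0.32 (SE 0.17, 95% interval −0.76 to 0.11, limma adjusted p = 0.488) and −0.42 (SE 0.19, 95% interval −0.90 to 0.06, limma adjusted p = 0.429). Neither passed with the intensity trend (adjusted p = 0.341 and 0.362). Msx1 therefore had no called change, and a rise of the size seen for the brighter Msx2 probe set lies outside both intervals.

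Dlx3, an activator needed for placental and epidermal development, was the other member called higher. Its brighter probe set (1450475_at) had intensities of 74 and 47 in control, 77 and 77 after activin, and 133 and 108 after SB431542. The SB431542 arrays were above all others, and the 2 control arrays differed from each other by more than the treated pairs did. Log2 means were 5.88 ± 0.46 (SD, n = 2) in control and 6.91 ± 0.21 (SD, n = 2) after SB431542. The difference of 1.02 (SE 0.24, 95% interval 0.41 to 1.64, limma adjusted p = 0.249) passed, as a rise, by the intensity trend (adjusted p = 0.0143). It missed that threshold without control replicate 2, where it was 0.70 (adjusted p = 0.184), and without SB431542 replicate 1, where it was 0.87 (adjusted p = 0.290). With the trend but without robust estimation, the brighter Dlx3 probe set did not pass (limma adjusted p = 0.0774). The dimmer Dlx3 probe set (1422037_at) had 48 and 48 in control, 47 and 50 after activin, and 44 and 61 after SB431542. Its groups overlapped, with a log2 difference of 0.11 (95% interval −0.35 to 0.57). Both are annotated to the same mRNA record, and with both averaged the difference was 0.57 and did not pass with the intensity trend (adjusted p = 0.190).

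Dlx4, the neighbour of Dlx3, also had discordant probe sets. The brighter one (1443591_at) had intensities of 52 and 36 in control, 26 and 30 after activin, and 24 and 26 after SB431542. Control arrays were highest and only they exceeded the bacterial maximum of 34. Its log2 difference after SB431542 was −0.79 (SE 0.21, 95% interval −1.31 to −0.27, limma adjusted p = 0.272, and 0.238 with the intensity trend). The dimmer one (1420595_at) stayed between 18 and 28 on all 6 arrays, within the bacterial range, with a log2 difference of −0.10.

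Dlx5, a factor of bone and craniofacial development, had intensities of 27 and 20 in control, 27 and 31 after activin, and 41 and 47 after SB431542 (1449863_a_at). The SB431542 arrays were the highest and the only ones above the bacterial maximum. Its log2 level was 4.54 ± 0.31 (SD, n = 2) in control and 5.46 ± 0.14 (SD, n = 2) after SB431542. The difference of 0.92 (SE 0.19, 95% interval 0.44 to 1.40) did not pass by default (limma adjusted p = 0.224) or with the intensity trend (adjusted p = 0.148). Because the control level is within the bacterial range, the 1.89-fold difference is limited by background.

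Dlx2 and Dlx1, paired neighbours with roles in forebrain interneurons, were at or near background. Dlx2 (1448877_at) had intensities of 19 and 23 in control, 14 and 16 after activin, and 26 and 36 after SB431542. Its 3 groups did not overlap, with activin lowest and SB431542 highest, yet only 1 array exceeded the bacterial maximum. The log2 difference after SB431542 was 0.55 (SE 0.21, 95% interval 0.03 to 1.07, limma adjusted p = 0.372, and 0.405 with the intensity trend). Dlx1 (1449470_at) stayed between 13 and 16 on every array, and its log2 difference was −0.01 (95% interval −0.40 to 0.39).

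**Figure D3:**
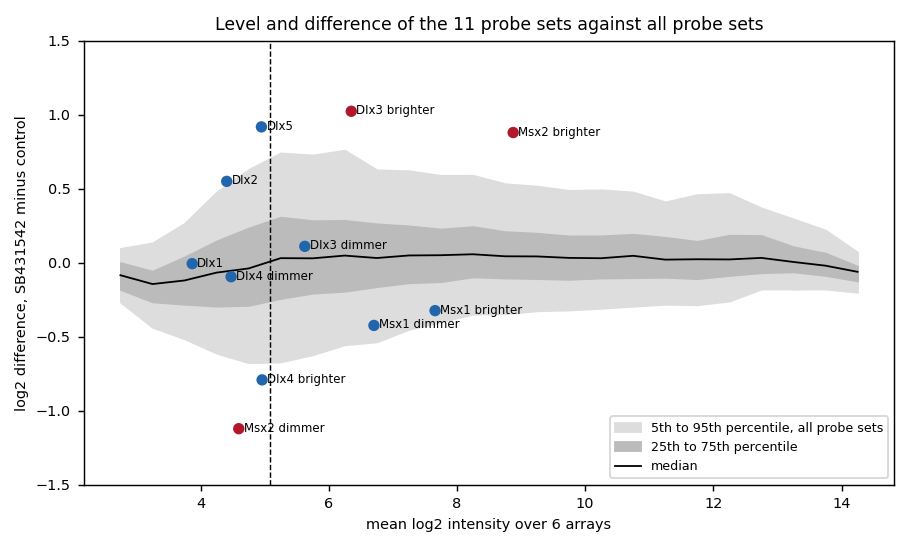
Log2 difference, SB431542 minus control, against the mean log2 intensity over 6 arrays for the 11 probe sets. Grey bands show percentile ranges of all probe sets in bins of level, as the legend gives them, the line their median, and the dashed line the highest bacterial value. Red points passed with the intensity trend, and the brighter Msx2 probe set, at a difference of 0.88, is the only one of those 3 above a mean level of 8.

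The comparison of activin with control asks how these genes stand after 2 h of added ligand. No member moved past the threshold, and Msx1 and the brighter Msx2 probe set were close to their control levels. The brighter Msx2 probe set differed by −0.01 on the log2 scale (SE 0.16, 95% interval −0.42 to 0.40), and the Msx1 probe sets by −0.09 and −0.03. Limma called 0 of the 11 by default, where it called 0% of all probe sets, and 0 with the intensity trend, where it called 0.215%. At an unadjusted p under 0.05 there were 2 of the 11 by default and 1 with the intensity trend, against 6.21% and 7.14% of all. Groups did not overlap for 5 of the 11, against 29.2% of all probe sets. Of these, 1 was higher, against 14.7%, and 4 lower, against 14.5%.

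Those with the smallest p were both near background. The brighter Dlx4 probe set was at −0.63 (SE 0.21, 95% interval −1.15 to −0.11, limma adjusted p = 0.793) and the dimmer Msx2 probe set at −0.71 (SE 0.28, 95% interval −1.41 to −0.01, limma adjusted p = 0.805). The same probe sets were also lower after SB431542, and both contrasts use the same 2 control arrays. Dlx2 had a value of −0.48 (SE 0.21) and the brighter Dlx3 probe set one of 0.38 (SE 0.24). Dlx5 was at 0.32, Dlx1 at 0.05, and the dimmer Dlx3 and Dlx4 probe sets at 0.01 and −0.03.

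Activin and SB431542 were also compared with each other, at their different durations, in the same fit, so the control arrays enter its estimate of the spread. The brighter Msx2 probe set was 1.85-fold lower after activin than after SB431542, a log2 difference of −0.89 (SE 0.16, 95% interval −1.30 to −0.48, limma adjusted p = 0.284). With the intensity trend it was called lower (adjusted p = 1.78e-05). Fits without 1 array are not read as support for that call, as the prior then outweighs the probe set's own spread. Dlx2 had a value of −1.03 (SE 0.21, 95% interval −1.55 to −0.51, limma adjusted p = 0.315), short of the threshold with the intensity trend as well (adjusted p = 0.0831). The brighter Dlx3 probe set was at −0.64 (SE 0.24, limma adjusted p = 0.538, and 0.296 with the intensity trend) and Dlx5 at −0.60 (SE 0.19, limma adjusted p = 0.477). Both Msx1 probe sets were higher in value after activin, by 0.23 and 0.39, and neither passed. The dimmer Msx2 probe set was at 0.41, again opposite in sign to the brighter one, and overlapped between the groups.

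By default 0 of the 11 passed in this comparison, against 0.0200% of all probe sets, and 4 of the 11 had an unadjusted p under 0.05, against 9.04%. With the intensity trend 1 of 11 passed, against 2.27% of all, and it was lower, against 1.47% of all lower and 0.802% higher. Groups did not overlap for 5 of the 11, against 36.9% of all. After activin 4 of these were lower, against 18.2%, and 1 higher, against 18.7%. Dlx2 joined Msx2 as lower with the intensity trend after repeated quantile normalization (adjusted p = 0.0492) or with columns shifted to 1 median (adjusted p = 0.0405).

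**Figure D4:**
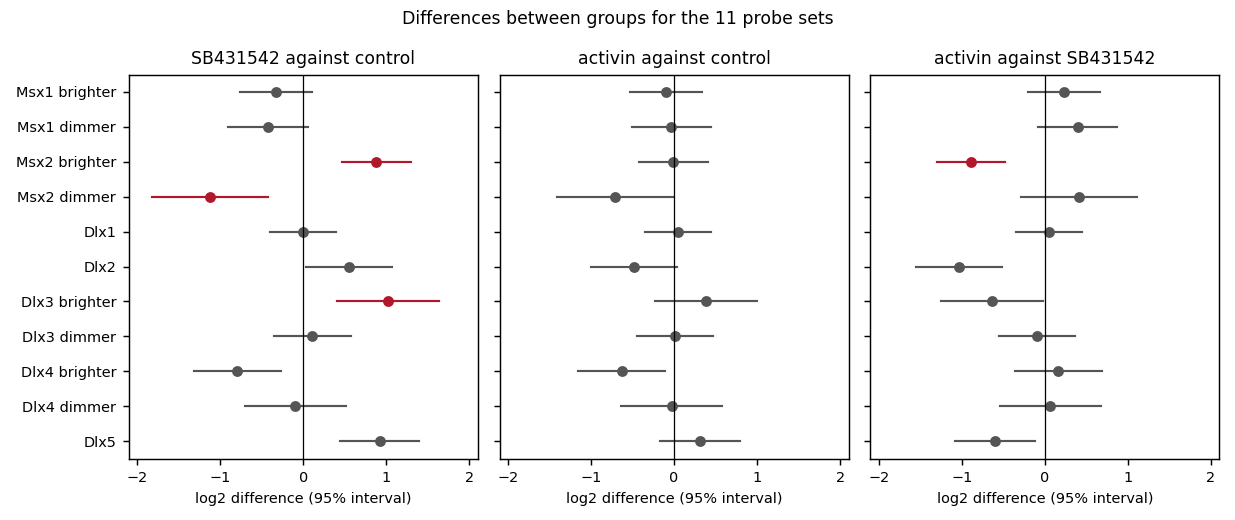
Log2 differences of the 11 probe sets in the 3 comparisons, as points with 95% intervals from the default limma fit. Red marks an adjusted p under 0.05 with the intensity trend. SB431542 against control has 3 red points, activin against control none, and activin against SB431542 1, the brighter Msx2 probe set at −0.89.

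Within each gene the order of the groups was as follows. For the brighter Msx2 probe set, SB431542 was highest and control and activin did not differ beyond their spread. For the brighter Dlx3 probe set and Dlx5, the means ran from control through activin to SB431542. For Dlx3 only the step from control to SB431542 passed, with the intensity trend, and for Dlx5 no step passed. For Dlx2 they ran from activin through control to SB431542, none of these steps passing. For Msx1 both probe sets had control highest and SB431542 lowest, and no step passed. For the dimmer Msx2 and the brighter Dlx4 probe sets control was highest, the treated groups were not resolved from each other, and only the step from control to SB431542 for Msx2 passed, with the intensity trend.

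Genes with the most similar profile over the 6 arrays were sought for the 5 members with a probe set above background in at least 1 group, among other genes above background on all arrays. For the brighter Msx2 probe set these were Ssbp3 (Pearson r = 0.997), Cnksr1 (0.993) and Atp1b1 (0.992). Dlx3 was closest to Nit1 (0.996), Cep128 (0.995) and Stag1 (0.994), and Dlx5 to Poglut3 (0.994), Ccm2 (0.994) and Atp6v1g1 (0.993). Msx1 was closest to Pias1 (0.993), Galnt12 (0.988) and Zbed3 (0.985), and Dlx4 to Chrac1 (0.991), Chchd7 (0.990) and Czib (0.982). These r are descriptions over 6 arrays that share 3 group means. Values above 0.9 were common, for 475 of 7908 candidate probe sets with Msx2, 497 of 7908 with Dlx3 and 568 of 7909 with Dlx5. They were fewer with Dlx4, 123 of 7909, and with Msx1, 90 of 7907.

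Other BMP target genes were listed beside the members, with 1 probe set for each of 18 genes. After SB431542, 9 of the 18 rose and 1 fell with the intensity trend, and 0 passed by default. Over 18193 genes, 4.25% rose and 2.23% fell with the intensity trend. The median log2 difference of the list was 0.65, against −0.00 over those genes. Id2, which blocks the DNA binding of bHLH factors, was at 1.60 (SE 0.13, limma adjusted p = 0.0978, and 2.76e-15 with the intensity trend). Its relative Id4 was at 0.94, and Tfap2c, a factor of trophoblast and surface ectoderm, at 0.79. Hand1, a factor of trophoblast and heart, was at 1.09, and Gata2, a zinc finger factor of blood and trophoblast, at 0.95. Smad7, an inhibitory Smad that also answers to Smad2/3, was the 1 that fell by the intensity trend, at −0.66, and is named after its value was seen. Of the 11 members, 5 had values above 0, among them the called brighter Msx2 and Dlx3 probe sets, Dlx5 and Dlx2. The other 6 had values below 0, among them both Msx1 probe sets, the brighter Dlx4 probe set and the called dimmer Msx2 probe set. The 11 members had a median of −0.01, against −0.03 over all probe sets.

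After activin, 1 of the 18 BMP targets was called with the intensity trend, Id3, which fell by 1.04 on the log2 scale (adjusted p = 2.36e-09), where 0.011% of all genes fell. The median of the list was −0.05, against −0.01 over all genes. Id3 is another common BMP readout, and the brighter Msx2 probe set, at −0.01, did not share its value. Between activin and SB431542, 9 of the 18 were lower and 1 higher after activin with the intensity trend, against 2.12% and 1.26% of all genes, with a median of −0.66 against 0.00 over all genes. Id2 was at −1.74 and Id3 at −1.52 in that comparison, and Tfap2a, a factor of surface ectoderm and neural crest, at −1.44, beside −0.89 for the brighter Msx2 probe set.

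Lists drawn around the roles of single members gave the following counts with the intensity trend in SB431542 against control, to be read against the same 4.25% and 2.23%. Of 12 measured trophoblast genes around Dlx3, 6 rose and 1 fell, with a median of 0.61, and by default 1 rose and 1 fell. Those default calls were both lost without any 1 of the 6 arrays, where the default test called 0 of all probe sets in that comparison. Ascl2, needed in the trophoblast lineage, rose by 2.03 (limma adjusted p = 0.0457), and Esx1, a homeobox gene of the placenta, was at 1.18 (adjusted p = 4.18e-07 with the intensity trend). Eomes, a T-box factor of trophoblast and mesendoderm, fell by 2.32 (limma adjusted p = 0.0457). Of 17 surface ectoderm and neural plate border genes 4 rose, Tfap2a, Tfap2c and the keratins Krt8 and Krt18, with a median of 0.22. None of 9 forebrain interneuron genes around Dlx1 and Dlx2 passed, with a median of −0.06. Of 8 bone and limb genes around Dlx5 and Msx2 none rose and 1 fell, and their median was −0.43. The 1 was Alpl, a phosphatase used as an osteoblast marker, at −0.53. Its log2 level in the control stem cells was 8.90, against 6.40 or lower for the rest of that list. By default these last 3 lists had 0 members past the threshold. After activin none of these 4 lists had a member past the threshold by either test. Between activin and SB431542, the intensity trend called 6 trophoblast genes lower and 1 higher after activin, 5 ectoderm genes lower, and 0 in the other lists. By default 1 trophoblast gene was higher, Eomes at 2.56, and 1 lower, Ascl2 at −2.28, and these too were lost without any 1 of the 6 arrays. Hand1, Gata3, Tfap2a and Tfap2c are each in more than 1 list, so the counts overlap.

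**Figure D5:**
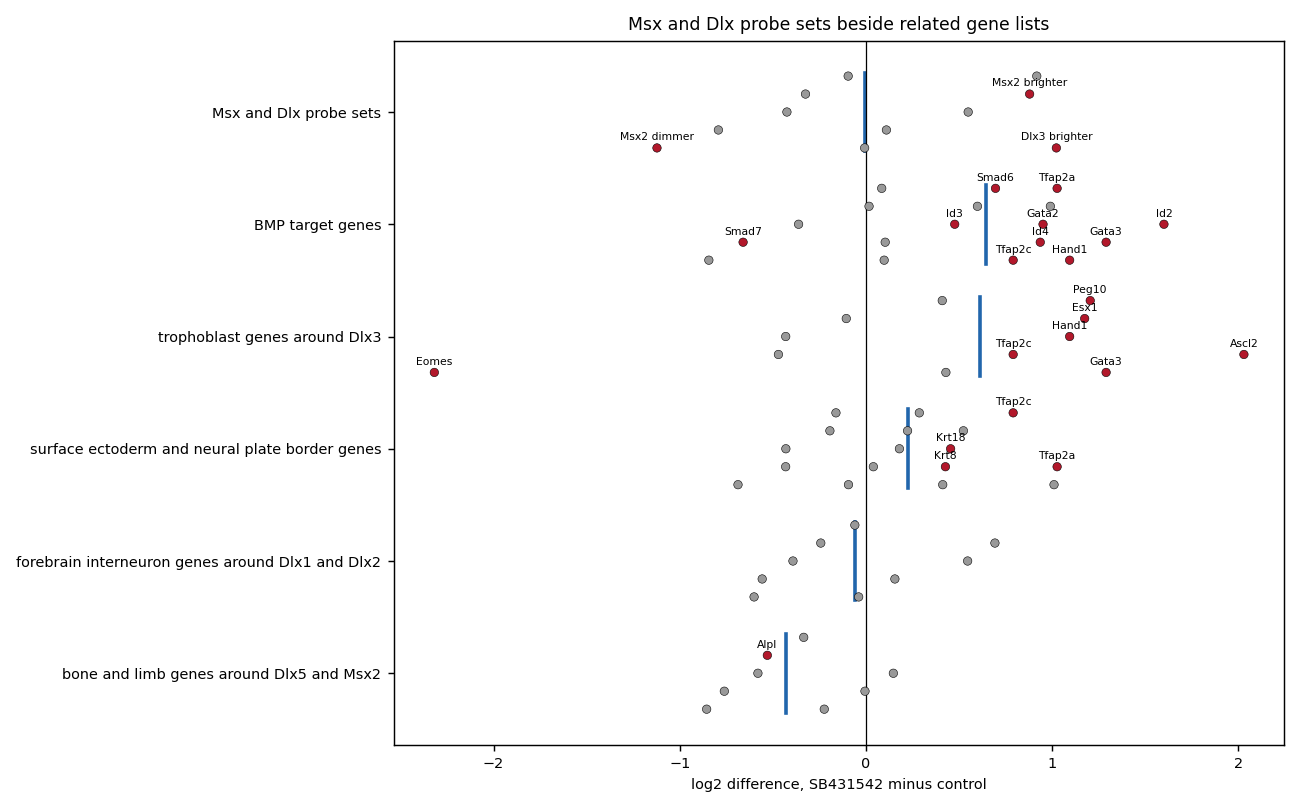
Log2 difference, SB431542 minus control, for the 11 Msx and Dlx probe sets and for 5 gene lists, with 1 probe set per gene in the lists. Red points passed with the intensity trend and are named, grey points did not, and blue bars are medians, from 0.65 for BMP targets to −0.43 for bone and limb genes.

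Markers of other cell types were read beside the called members. With the intensity trend 4 of 9 measured trophoblast markers rose after SB431542, Krt8, Krt18, Hand1 and Gata3, and 1 fell, Eomes. Their summed intensity was 11987 and 10027 in control, 9828 and 9371 after activin, and 14650 and 14775 after SB431542, with Krt8 and Krt18 giving most of it. Cdx2 was at −0.11, and Elf5 and Tpbpa, which mark trophoblast more narrowly, were within the bacterial range on all arrays. Of 7 neural crest and surface ectoderm markers 1 rose, and their summed intensity was 625 to 704 in control, 670 to 699 after activin and 851 to 901 after SB431542. Of 9 fibroblast markers 2 fell, Vim and Col1a1, with sums of 3802 to 3918, 3593 to 3758 and 2524 to 2698 in the same order. Vim, at a control log2 level of 11.8, gave most of each sum, and Col1a1 was at 6.57. Of 9 extraembryonic endoderm markers 1 rose, Sparc, with sums of 2168 to 2245, 2103 to 2169 and 2754 to 2866, most of each from Sparc. Of 6 measured neural markers 1 rose, Pax6, with sums of 677 to 757, 689 to 786 and 662 to 727. Of the 8 embryonic stem cell markers 1 rose, Klf4 at 0.50, and 3 fell, Pou5f1 at −0.43, Nanog at −0.24 and Tdgf1 at −0.26. Their sums were 36658 to 38662, 37870 to 38673 and 35755 to 36320. All these marker calls were made with the intensity trend, and by default only Eomes passed. The part of other cell types in the Msx2 and Dlx3 values was not tested.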

How the data were processed

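RNA of E14Tg2a cells was hybridised to 6 Affymetrix mouse arrays, 2 per group. The deposited intensities are whole numbers on a linear scale, made by the authors with RMA per the submitters' processing notes, which give no version. Each was converted to log2 with no further normalization. The median log2 intensity ran from 5.21 (control 2) to 5.61 (activin 2). These medians were not equal, and whether probe values were quantile-normalized before they were summarized cannot be read from them. The setting called repeated quantile normalization did not start from arrays with equal medians. Tests covered 45037 probe sets, without the 64 Affymetrix controls.

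Groups were read from sample titles. The title of SB431542 replicate 2 gives a differing compound number, which was read as SB431542. No label says that a group's arrays stem from different cultures. Its p-values therefore reflect array-to-array spread, which may be technical. Limma 3.58.1 (R 4.3.3) was fitted to all 6 arrays with 1 mean per group, 3 residual degrees of freedom and Benjamini-Hochberg adjustment over 45037 probe sets at 0.05. The intensity trend used the trend and robust options of eBayes. The fit was run on simulated data with independent noise and no shift between arrays. These arrays differ in their medians, so that run does not bear on the calls made here. Symbols came from the platform annotation, and probe sets with several symbols or none were not named. For lists, the probe set with the highest mean stood for a gene.

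All probe sets of the 7 genes were named, with up to 5 called genes per list and comparison by smallest p, and 3 genes per profile with a range of at least 0.5 log2 units. Members and lists were chosen with earlier results of these data known. The alternatives were another variance prior, repeated quantile normalization, columns shifted to 1 median, an offset of 16 before log2, a filter on dim probe sets, averaging a gene's probe sets, a replicate block, fitting only 2 groups, and leaving out each array. The background value is the highest over the 6 arrays. With 2 arrays a group, their number limits the precision.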

Additional observations from a re-analysis of the deposited data

How the results depend on the processing

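No member passed by default. In SB431542 against control, counts rose from 0 to 3 with the intensity trend. Columns shifted to 1 median gave 2, the brighter Dlx3 and dimmer Msx2 probe sets. Under that setting the default prior had infinite degrees of freedom. Every probe set then had the same SE, 0.27, although the spread depended on level, so those calls cannot be credited to the shift alone. The trend without robust estimation, a setting added after the data were seen, gave 1, the brighter Msx2 probe set (limma adjusted p = 0.00546). The share of all probe sets called went from 0.0155% to 4.98%, 1.76% and 2.66%. In activin against SB431542 they went from 0 to 1, 1 and 1 under the same settings, the shifted columns calling Dlx2, and the share of all from 0.0200% to 2.27%, 0.915% and 0.964%. In activin against control every setting run gave 0. Leaving out 1 array gave 0 by default in all 3 comparisons, where 0 of all probe sets were called either, so it says nothing about the members. With the intensity trend, calls kept without 1 array rest mostly on the prior and are not read as support. The SB431542 against control calls of the brighter Dlx3 and dimmer Msx2 probe sets were each lost without some single arrays.

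Combining the other settings with this trend was decided once the data had been seen. Averaging the probe sets of a gene then left 0 in both comparisons with calls. In activin against SB431542, repeated quantile normalization, shifted columns and a crossed pairing of the control and activin arrays each gave 2. The replicate numbers used are those of the titles, since the descriptions number every array differently and share none between groups. They were not taken as a pairing in the main fit. Deviations of same-numbered arrays correlated at −0.14 (control and activin), 0.02 (control and SB431542) and −0.09 (activin and SB431542). With 2 arrays a group, the crossed order gives the same values with opposite sign. These correlations therefore cannot show whether arrays were paired. The replicate block gave 0 calls by default in all 3 comparisons. With the intensity trend it left 2 calls in SB431542 against control, losing the dimmer Msx2 probe set at an adjusted p of 0.0517.

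Of 540 recomputed log2 differences of single probe sets, 26 changed sign, and apart from Msx2 with its probe sets averaged (−0.12) all had been within 0.12 of 0. Dlx1 went to 0.10 (SB431542 against control) and −0.029 (activin against SB431542) with quantile normalization and to −0.018 in activin against control with shifted columns. The dimmer Dlx3 probe set went to −0.051 in activin against control under both, and the dimmer Dlx4 one to −0.052 in activin against SB431542 with quantile normalization. With 1 array left out, SB431542 against control ranged from −0.16 to 0.14 for Dlx1, −0.13 to 0.35 for the dimmer Dlx3 and −0.22 to 0.030 for the dimmer Dlx4 probe set. Activin against control ranged from −0.27 to 0.21 for the dimmer Msx1, −0.15 to 0.14 for the brighter Msx2, −0.050 to 0.14 for Dlx1, −0.030 to 0.059 for the dimmer Dlx3 and −0.35 to 0.29 for the dimmer Dlx4 probe set. Activin against SB431542 ranged from −0.10 to 0.20 for Dlx1, −0.33 to 0.14 for the dimmer Dlx3 and −0.25 to 0.38 for the dimmer Dlx4 probe set. The cause of these shifts was not tested.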

Other observations

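Of the family members outside the 7 genes, Dlx6 was within the bacterial range on all arrays. Msx3 was above that range on every array except the SB431542 array at 21. Msx3 had intensities of 45 and 46 in control, 39 and 53 after activin, and 42 and 21 after SB431542. Dlx6, the neighbour of Dlx5, had 16 and 18, then 15 and 16, then 24 and 14. At that level Dlx6 cannot show whether it followed the higher Dlx5 values after SB431542. Antisense or opposite-strand transcripts of the Dlx loci, chosen after their values were seen, gave no call in any comparison by either test. Dlx1as lay between 12 and 23, Dlx6os1 between 11 and 13, Dlx6os2 between 13 and 17, and Dlx4os between 24 and 51. In SB431542 against control the log2 difference of Dlx4os was 0.06 (SE 0.31), beside −0.79 for the brighter and −0.10 for the dimmer Dlx4 probe set.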
